A study of Mus musculus with 4 samples.

Results

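The GATA transcription factors Gata1 to Gata6 were examined in mouse embryonic stem cells (ESCs) that lack Dppa2, a nuclear protein of pluripotent cells also called ECAT15-2. Members were all array probes whose transcript accession maps to 1 of the 6 symbols. This gave 10 probes for 6 genes, out of 18217 symbols with a probe on the array. The array held 1 probe for Gata1, 2 for Gata2, 1 for Gata3, 2 for Gata4, 1 for Gata5 and 3 for Gata6. The position of each probe within its transcript is not given in the files, and each probe was read on its own.

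RNA of 4 ESC lines was hybridised in the one-colour format, with 1 array per line. The 2 KO lines were homozygous for the Dppa2 null allele (15-2-/-) and also carried a conditional targeted allele of ECAT15-1, known as Dppa4, on both copies (15-1CT/CT). The 2 WT lines were 15-2+/+ and 15-1+/+. KO 1 and WT 1 came from blastocysts of mother 1046 and KO 2 and WT 2 from blastocysts of mother 875, all at embryonic day 3.5 and of a mixed 129Sv and C57/BL6 background with a further Cre- or FLPe-transgenic cross. All 4 lines were grown on gelatin for 3 days with LIF and 15% fetal calf serum. Each line is a separate derivation, so the comparison is of these compound genotypes with n = 2 lines per group.

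GATA factors bind DNA through a pair of zinc fingers that recognise the core letters GATA, and they are named for that site. Gata1 and Gata2 are known as regulators of blood formation, Gata3 of T cells, and Gata2 and Gata3 also of trophoblast. Gata4 and Gata6 act in primitive endoderm, the layer that separates from the epiblast in the blastocyst, and together with Gata5 in the heart and gut. Undifferentiated ESCs are known for low GATA levels, and forced Gata4 or Gata6 turns mouse ESCs into endoderm. Dppa2 is known in mouse ESCs as a partner of Dppa4 at CpG-rich promoters.

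Promoter windows of 300 bases (250 before and 50 after a transcription start) were taken from RefSeq, build GRCm38.p6, for 4 of the 6 genes. They are given 5′ to 3′ with each CpG in capitals, because CpG content is what separates the Gata1 window from those of Gata2, Gata3 and Gata5. Gata2 has 2 annotated starts.
Gata2 upstream start, chr6:88193641-88193940, plus strand: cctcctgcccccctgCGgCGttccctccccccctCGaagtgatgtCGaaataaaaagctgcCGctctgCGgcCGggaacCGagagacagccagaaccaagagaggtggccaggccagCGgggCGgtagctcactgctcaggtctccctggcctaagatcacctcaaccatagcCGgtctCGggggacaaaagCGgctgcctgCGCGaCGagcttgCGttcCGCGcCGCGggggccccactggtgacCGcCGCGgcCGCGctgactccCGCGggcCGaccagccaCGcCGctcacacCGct
Gata2 downstream start, chr6:88198414-88198713, plus strand: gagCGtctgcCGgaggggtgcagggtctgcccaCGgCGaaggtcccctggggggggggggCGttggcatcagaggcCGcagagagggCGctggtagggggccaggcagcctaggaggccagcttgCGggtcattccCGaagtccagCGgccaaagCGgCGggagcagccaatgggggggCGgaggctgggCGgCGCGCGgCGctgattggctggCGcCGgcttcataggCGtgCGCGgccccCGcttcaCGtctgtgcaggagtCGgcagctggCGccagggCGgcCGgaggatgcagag
Gata3, chr2:9878551-9878850, minus strand: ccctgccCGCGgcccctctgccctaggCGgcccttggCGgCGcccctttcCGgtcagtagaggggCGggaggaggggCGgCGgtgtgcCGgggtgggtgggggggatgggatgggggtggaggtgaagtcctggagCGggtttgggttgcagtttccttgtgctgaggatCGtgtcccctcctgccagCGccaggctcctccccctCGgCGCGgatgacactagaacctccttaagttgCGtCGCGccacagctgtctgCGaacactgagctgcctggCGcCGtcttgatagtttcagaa
Gata5, chr2:180334630-180334929, minus strand: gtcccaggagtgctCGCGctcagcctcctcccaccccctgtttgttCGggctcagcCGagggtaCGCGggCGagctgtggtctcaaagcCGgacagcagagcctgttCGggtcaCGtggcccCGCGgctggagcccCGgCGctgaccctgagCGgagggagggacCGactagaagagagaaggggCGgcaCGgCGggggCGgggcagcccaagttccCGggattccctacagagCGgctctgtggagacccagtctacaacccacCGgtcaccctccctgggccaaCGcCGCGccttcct
Gata1, chrX:7967861-7968160, minus strand: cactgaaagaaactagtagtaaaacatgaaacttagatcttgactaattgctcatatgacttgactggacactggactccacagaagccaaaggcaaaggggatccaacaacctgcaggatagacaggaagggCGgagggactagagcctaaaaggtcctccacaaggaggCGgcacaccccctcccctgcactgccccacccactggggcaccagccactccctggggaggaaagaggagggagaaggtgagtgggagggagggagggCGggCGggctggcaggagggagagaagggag

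The Gata2 windows held 32 and 29 CpG, the Gata3 window 22, the Gata5 window 26 and the Gata1 window 4. Over all 32851 promoter windows of the table the median was 7 CpG, and 23.1% of windows held at least as many as Gata3. The family's own recognition letters (AGATAA or AGATAG or TGATAA or TGATAG, on either strand, with overlaps counted) matched once, as TGATAG from base 287 of the Gata3 window. At least 1 match was present in 29.8% of all windows. A match is a run of letters, not a measured binding site.

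The arrays had 68.4% to 70.3% of 41174 probes well above background, as called by the scanner software, and no saturated spot. The log2 difference of Dppa2 was -4.97, with 7.05 and 7.12 log2 signal in KO lines against 12.09 and 12.03 in WT lines (limma adjusted p = 0.0077, or 0.0686 with the mother as a block). ESC markers were bright in every line: of 11 tested, 11 had a positive KO minus WT difference, with a median of 0.85 against 0.09 over all tested probes. None of them passed in limma (6 higher and 0 lower at an unadjusted p under 0.05, against 10.9% and 12.1% of all tested probes). Among them Sox2 averaged 14.23 in KO and 13.38 in WT lines, Tfcp2l1 13.88 and 12.55, and Esrrb 14.34 and 12.78. Y-linked genes such as Eif2s3y were well above background in WT 1 alone (12.69, against 0.99 and 1.15 in KO 1 and KO 2, and 1.35 in WT 2). The sex of the lines was thus not balanced between the groups, and its part in the differences was not tested. Fibroblast markers, for cells that feeder layers could leave, had 2 of 15 tested members lower, Mmp2 (10.8-fold) and Fbn1 (7.07-fold). The summed fibroblast signal was 38330 and 44413 in KO lines, against 66664 and 36529 in WT lines, and Fap was not tested because it was dim. Acta2 and S100a4 gave most of that sum, so it says little about the other listed markers. S100a4 had 13.74 and 14.39 in KO lines, against 14.52 and 12.56 in WT lines. In bulk RNA, fewer cells of a type cannot be told apart from less RNA per cell.

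Values below are log2 of the processed signal, scaled to the 75th percentile of each array, and differences are KO minus WT. Of the 10 GATA probes, 9 were tested and 1 passed: Gata5 was higher, 0 probes were lower and 8 did not pass (limma, adjusted p under 0.05 over 28688 probes). Over all tested probes 1.78% were called, 0.167% as higher and 1.61% as lower. At an unadjusted p under 0.05, limma gave 4 GATA probes lower and 3 higher, against a background of 12.1% lower and 10.9% higher. The groups did not overlap for 8 of the 9 tested GATA probes, 4 with both KO lines above both WT lines and 4 with both below, where 61.8% of all tested probes do not overlap (37.4% above and 24.4% below). Gata5 and Gata4 probe A_52_P4201 were not well above background in either WT line. They entered the test through the KO lines alone, so their direction is not independent of the filter. With all 4 arrays required, 7 GATA probes were tested and none was called. At an unadjusted p under 0.05, limma then gave 4 of them lower and 1 higher, against 2816 lower and 3176 higher of 26453 probes. When the mother entered as a block, 0 GATA probes were called by limma (the lowest adjusted p was 0.0740, and 8 had an unadjusted p under 0.05). That fit called 0% of all probes. Among its 28688 probes, 3556 negative and 3084 positive differences met the same threshold before adjustment.

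**Figure D1:**
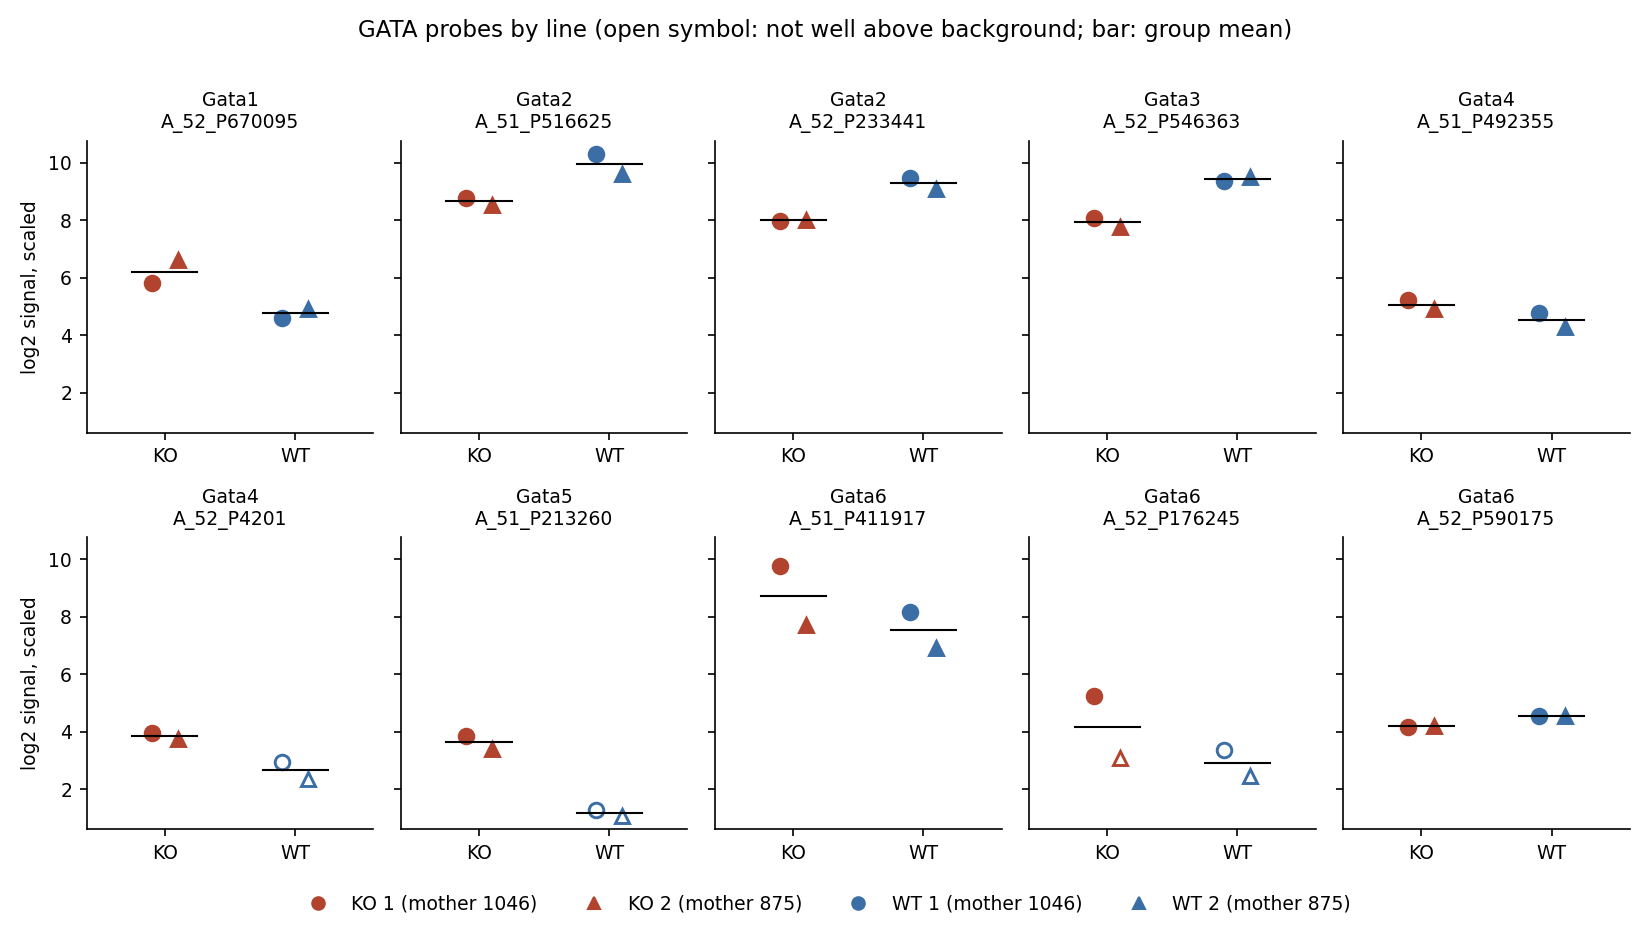
Log2 processed signal, scaled to the 75th percentile of each array, of the 10 GATA probes in the 2 KO and 2 WT lines; circles are lines of mother 1046, triangles of mother 875, open symbols are not well above background and bars are group means (n = 2). Gata2 and Gata3 lie lower in both KO lines, Gata1 lies higher, and the lines of mother 1046 lie above those of mother 875 for Gata6 probe A_51_P411917 within each genotype.

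Gata2 and Gata3, the pair known from trophoblast, were both below WT in every comparison of lines without passing the test. Gata3 gave 8.09 in KO 1 and 7.78 in KO 2, against 9.37 in WT 1 and 9.51 in WT 2. Both KO lines lay below both WT lines, and the gap between the groups was larger than the spread inside either. Its mean was 7.93 ± 0.22 in KO and 9.44 ± 0.10 in WT lines (SD, n = 2 each), a log2 difference of -1.51 (SE 0.17, 95% interval -1.998 to -1.016, limma adjusted p = 0.055). The WT signal was thus 2.84-fold that of KO, 2.43-fold between the lines of mother 1046 and 3.32-fold between those of mother 875. Gata3 passed under normexp background correction with the 75th percentile (log2 difference -1.29, limma adjusted p = 0.039) and with an intensity trend and robust prior (0.047). Over 14 alternatives its difference stayed between -1.66 and -1.21, with limma adjusted p from 0.039 to 0.271.

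Gata2 was read by 2 probes that gave nearly the same difference. Probe A_52_P233441 gave 7.99 in KO 1 and 8.01 in KO 2, against 9.48 in WT 1 and 9.09 in WT 2. The KO lines were almost equal and both below WT. The log2 difference was -1.29 (SE 0.19, 95% interval -1.82 to -0.75, limma adjusted p = 0.079). Probe A_51_P516625 gave 8.79 and 8.54 in KO 1 and KO 2, against 10.30 in WT 1 and 9.63 in WT 2. Its log2 difference was -1.30 (SE 0.29, 95% interval -2.13 to -0.48, limma adjusted p = 0.130), and again no KO line reached a WT line. WT over KO was 2.44-fold and 2.47-fold by the 2 probes. Under normexp with the 75th percentile the first of them passed (log2 difference -1.09, limma adjusted p = 0.0495) and the second did not (0.072). Between the lines of mother 1046 the probes differed by -1.49 and -1.52, and between those of mother 875 by -1.08 and -1.09.

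**Figure D2:**
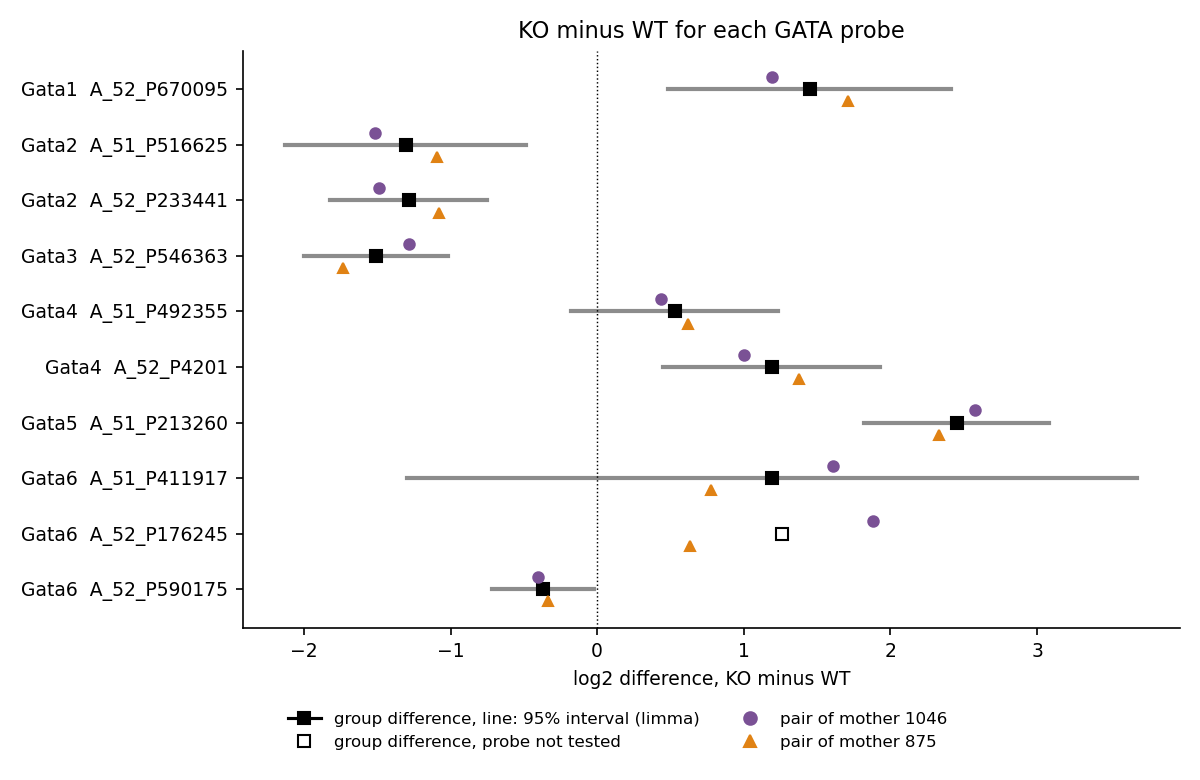
KO minus WT on the log2 scale for each GATA probe; squares are the difference of group means (open where the probe was not tested), grey lines are limma 95% intervals, and circles and triangles are the pairs of lines from mothers 1046 and 875. For each probe both pairs lie on the same side of 0, and the interval of Gata6 probe A_51_P411917 runs from -1.29 to 3.68.

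Most genes of the trophoblast list, the lineage in which Gata2 and Gata3 are known to act, also had negative differences. Of 20 tested, 2 fell, 0 rose and 18 did not pass, where 1.61% of all tested probes were called lower and 0.167% higher. Of the differences 17 were negative, and the median was -0.64 against 0.09 over all tested probes. Hand1, a transcription factor of giant cells and mesoderm, had 4.24 and 5.53 in KO lines, against 9.74 and 9.53 in WT lines, a 26.9-fold fall (limma adjusted p = 0.048). That call held under 4 of 14 alternatives and was lost with quantile normalization (0.058), median centring (0.051) and the deposited values (0.057), and the log2 difference was -4.75, against -3.01 under normexp with the 75th percentile. Krt8, a keratin of simple epithelia, fell 6.72-fold (limma adjusted p = 0.048). The trophectoderm regulators did not pass: Cdx2 had 8.06 and 6.27 in KO lines against 10.89 and 9.47 in WT lines, and Eomes 7.52 and 6.99 against 8.91 and 9.19. Those differences were -3.02 for Cdx2 (limma adjusted p = 0.170) and -1.79 for Eomes (0.073). The summed signal of the tested list was 106952 and 83010 in KO lines, against 321910 and 420931 in WT lines. Krt8 and Krt18 gave most of that sum, so it says little about the other listed genes. Krt8 had 14.77 and 14.22 in KO lines, against 17.03 and 17.46 in WT lines. Krt18 had 15.42 and 14.88 in KO lines, against 17.12 and 17.51 in WT lines. The part of the list in the Gata2 and Gata3 values was not tested. Over the trophoblast, endoderm, heart, cofactor and fibroblast lists 9 genes were called lower and 1 higher. None of these calls held with the mother as a block (limma adjusted p from 0.0696 for Nkx2-5 to 0.114 for Krt8). That fit called 0% of all probes, so its misses do not set these genes apart. With any 1 line left out, each of these differences kept its sign.

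Gata1, the X-linked erythroid and megakaryocyte factor, had more signal in the KO lines. Its probe was printed 10 times on each array, and 8 to 10 spots were usable per array, all of them well above background. The spot means were 5.81 in KO 1 and 6.63 in KO 2, against 4.62 in WT 1 and 4.92 in WT 2. Both KO lines were above both WT lines, and spots of 1 array spread by an SD of 0.21 and 0.08 in KO 1 and KO 2 and of 0.16 and 0.12 in WT 1 and WT 2. The lowest KO 1 spot, at 5.56, lay above the highest spot of either WT array, at 5.14. Spots of 1 array share an RNA sample and are not replicates. The KO lines differed from each other by 0.82, more than the spot SD of any array. The log2 difference was 1.45 (SE 0.34, 95% interval 0.49 to 2.41), or 2.73-fold, and did not pass (limma adjusted p = 0.138). Between the lines of mother 1046 it was 1.19. Between those of mother 875 it was 1.71. Neither line of mother 875 had Y-linked genes well above background, but that does not give their number of X chromosomes. The Xist probes were faint and differed in order: A_52_P113537 was highest in KO 2 (5.52) and A_51_P145453 in WT 1 (4.74). The part of the X chromosome in the Gata1 values was not tested. Under normexp with the 75th percentile the Gata1 difference was 0.48. Normexp here adds an offset of 50 to each signal, which shrinks differences of dim probes.

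**Figure D3:**
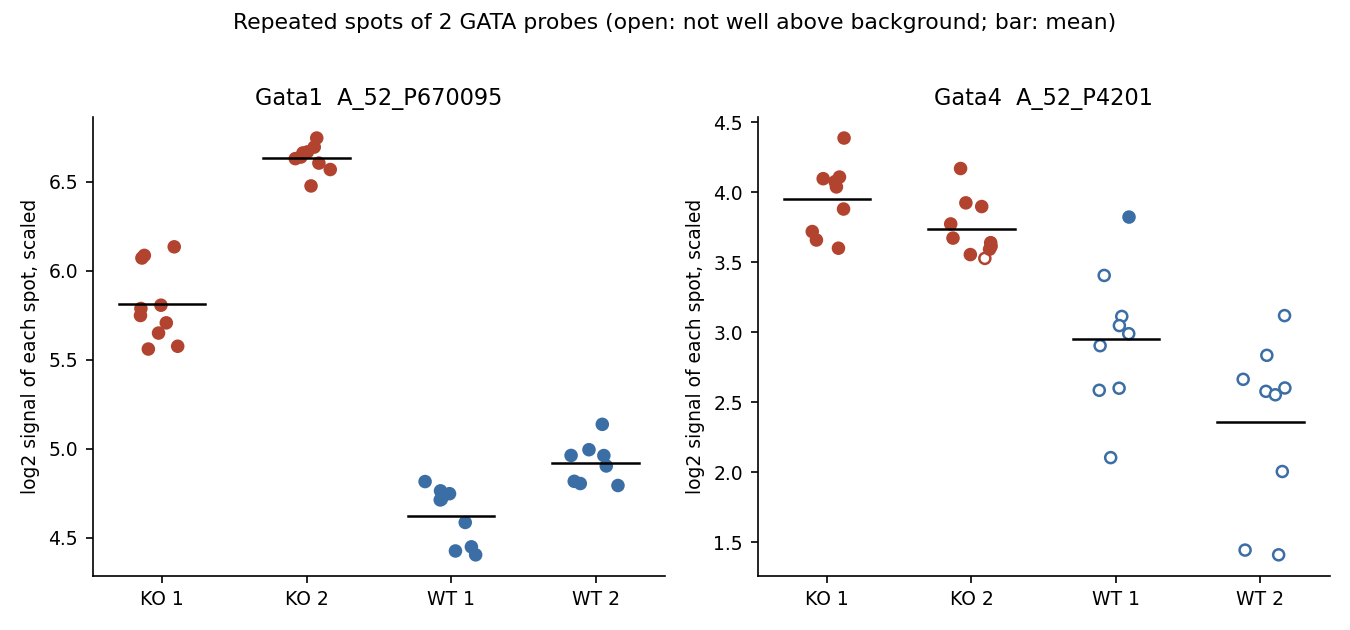
Log2 signal of every usable spot of Gata1 probe A_52_P670095 (left) and Gata4 probe A_52_P4201 (right) in the 4 lines, with open points for spots not well above background and bars for means. Gata1 spots of KO 1, of KO 2 and of the WT lines lie apart, and those of WT 1 and WT 2 overlap. WT spots of Gata4 lie mostly below the detection call and spread by an SD of 0.50 and 0.60.

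Gata4, Gata5 and the dimmer Gata6 probes sat close to the array background. Gata4 probe A_51_P492355 was well above background on all 4 arrays, at 5.23 and 4.91 in KO lines against 4.79 and 4.29 in WT lines. KO 2 lay just above WT 1, so the groups all but met, and the log2 difference of 0.53 (SE 0.25) did not pass (limma adjusted p = 0.290). The second Gata4 probe, A_52_P4201, had 9 of 9 and 9 of 10 spots above background in KO 1 and KO 2, against 1 of 9 and 0 of 9 in WT 1 and WT 2. Its means were 3.95 and 3.74 in KO lines, against 2.95 and 2.36 in WT lines. Since WT was not well above background, the change in processed signal is a bound of at least 1.30-fold, and the fit did not pass (limma adjusted p = 0.127). For such a bound, each dim array contributes its own reading or its detection floor, whichever is greater, and the floor is that array's dimmest detected probe (log2 3.58 in WT 1 and 3.35 in WT 2). Under normexp with the 75th percentile both Gata4 differences were near 0 (0.027 for the first probe and 0.0015 for the second). The second is below the stated bound. At such faint signals the normexp offset of 50 draws differences toward 0 by construction.

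Gata5, a heart and gut factor, carried the single call of the family, and its signal was faint. The scaled values were 3.87 in KO 1 and 3.41 in KO 2, against 1.29 in WT 1 and 1.07 in WT 2. In raw units the spot read 49 in KO 1 over a local background of 31 and 38 in KO 2 over 29, against 31 in WT 1 over 25.5 and 32 in WT 2 over 30. The detection call was positive in both KO lines and in neither WT line. The fitted log2 difference was 2.45 (SE 0.22, limma adjusted p = 0.038). As a bound the rise in processed signal is only at least 1.13-fold, because the WT values are not well above background. With normexp background correction the difference was 0.10 with the 75th percentile and 0.27 with quantiles (limma adjusted p = 0.858 and 0.197). Gata5 also missed the threshold with no filter on dim probes (limma adjusted p = 0.051) and with an intensity trend and robust prior (0.057). It passed with quantile normalization (0.026), median centring (0.032), the deposited values (0.026) and 1 probe per gene (0.041). With the mother as a block it missed (0.0740), but that fit called 0% of all probes (lowest limma adjusted p 0.0686) and cannot decide. With 1 line left out, the Gata5 difference ran from 2.22 to 2.68.

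Gata6, a driver of primitive endoderm, varied more between lines of 1 genotype than any other family member. Its bright probe A_51_P411917 gave 9.76 in KO 1 and 7.71 in KO 2, against 8.15 in WT 1 and 6.93 in WT 2. The groups overlapped, since WT 1 lay above KO 2. The line of mother 875 minus that of mother 1046 was -2.05 in KO and -1.22 in WT. Within each mother's pair KO was above WT, by 1.61 for mother 1046 and 0.78 for mother 875. The log2 difference of 1.19 (SE 0.88, 95% interval -1.29 to 3.68) did not pass (limma adjusted p = 0.445, or 0.182 with the mother as a block), and it was 0.17 without KO replicate 1 and 2.22 without KO replicate 2.

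The other Gata6 probes split. Probe A_52_P176245 was well above background in KO 1 alone and so was not tested. It gave 5.26 in KO 1 and 3.08 in KO 2, against 3.37 in WT 1 and 2.45 in WT 2, and the groups overlapped. All but the KO 1 value were not well above background, so their order is not read. Probe A_52_P590175 gave 4.16 and 4.21 in KO lines, against 4.56 and 4.54 in WT lines. It thus ran the opposite way, with a log2 difference of -0.37 (SE 0.12, limma adjusted p = 0.206), and did not separate the mothers. Which of these probes reads the Gata6 transcript best cannot be told from the files.

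The endoderm list, of the lineage that Gata4 and Gata6 are known to drive, did not move in 1 direction. Of 26 tested genes 2 fell, 1 rose and 23 did not pass, with 17 negative differences and a median of -0.58. The shares called over all tested probes were 1.61% lower and 0.167% higher. The falls were Lrp2, an endocytic receptor (5.27-fold, limma adjusted p = 0.028), and its adaptor Dab2 (3.37-fold, 0.036), and the rise was the laminin chain Lama1 (3.21-fold, 0.038). The endoderm transcription factors Sox17 and Sox7 did not pass and had positive differences. Sox17 gave 8.33 and 7.01 in KO lines, against 6.29 and 6.22 in WT lines (log2 difference 1.42, limma adjusted p = 0.216). Sox7 gave 8.31 and 8.95 in KO lines, against 7.35 and 7.03 in WT lines (1.44, 0.113). Sox17 was highest in KO 1, as Gata6 was by its bright probe, whereas Sox7 was highest in KO 2. Foxa2 had 8.37 and 8.06 in KO lines against 8.41 and 9.95 in WT lines, and Hnf4a had 3.37 and 3.76 in KO lines against 3.33 in both WT lines. Hnf4a was not well above background in either WT line, and its KO 1 value lay below the WT 1 detection floor of 3.58. No fold is therefore given. Its log2 difference of 0.23 did not pass (limma adjusted p = 0.485), and the sign turned under normexp with the 75th percentile (-0.069). Apoa1 and Ttr, markers of visceral endoderm, were too dim to be tested.

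The heart list, linked to Gata4, Gata5 and Gata6, had 3 falls, 0 rises and 16 genes that did not pass among 19 tested, with a median of -0.13. Calls over all tested probes were 1.61% lower and 0.167% higher. Nkx2-5, a homeobox partner of Gata4, fell at least 22.1-fold (limma adjusted p = 0.021), the mesoderm factor Mesp2 fell 7.03-fold (0.014) and the myosin gene Myh6 fell 5.68-fold (0.016). These sizes depend on the background correction. Under normexp with the 75th percentile the log2 differences were -1.96 for Nkx2-5, below the stated bound, -1.26 for Mesp2 and -1.81 for Myh6, and all 3 passed. Nkx2-5 is known as a gene the authors pursued from these arrays, so it is no independent evidence.

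Among cofactors and partners of GATA proteins, 1 of 17 tested genes fell, again Nkx2-5, 0 rose and 16 did not pass. The background shares were 1.61% lower and 0.167% higher over all tested probes. Zfpm1, also called FOG1, the cofactor that binds the amino-terminal zinc finger of Gata1, gave 10.78 and 10.45 in KO lines, against 11.78 and 12.19 in WT lines. That is a WT over KO ratio of 2.58 (log2 difference -1.37, SE 0.23, limma adjusted p = 0.091), without overlap of the groups. Its relative Zfpm2, a partner of Gata4 in the heart, gave 6.42 in KO 1 and 3.73 in KO 2, against 7.57 in WT 1 and 8.02 in WT 2. The 2 KO lines were far apart, and the log2 difference of -2.72 (SE 1.00) did not pass (limma adjusted p = 0.226). The Zfpm2 difference was -4.07 without KO replicate 1 and -1.38 without KO replicate 2. Each of these fits keeps 1 KO line and cannot measure the spread between KO lines. Klf1, an erythroid factor and a known Gata1 target, had 6.86 and 6.90 in KO lines against 6.82 and 6.79 in WT lines. Tal1 is not named on the array by the RefSeq table.

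**Figure D4:**
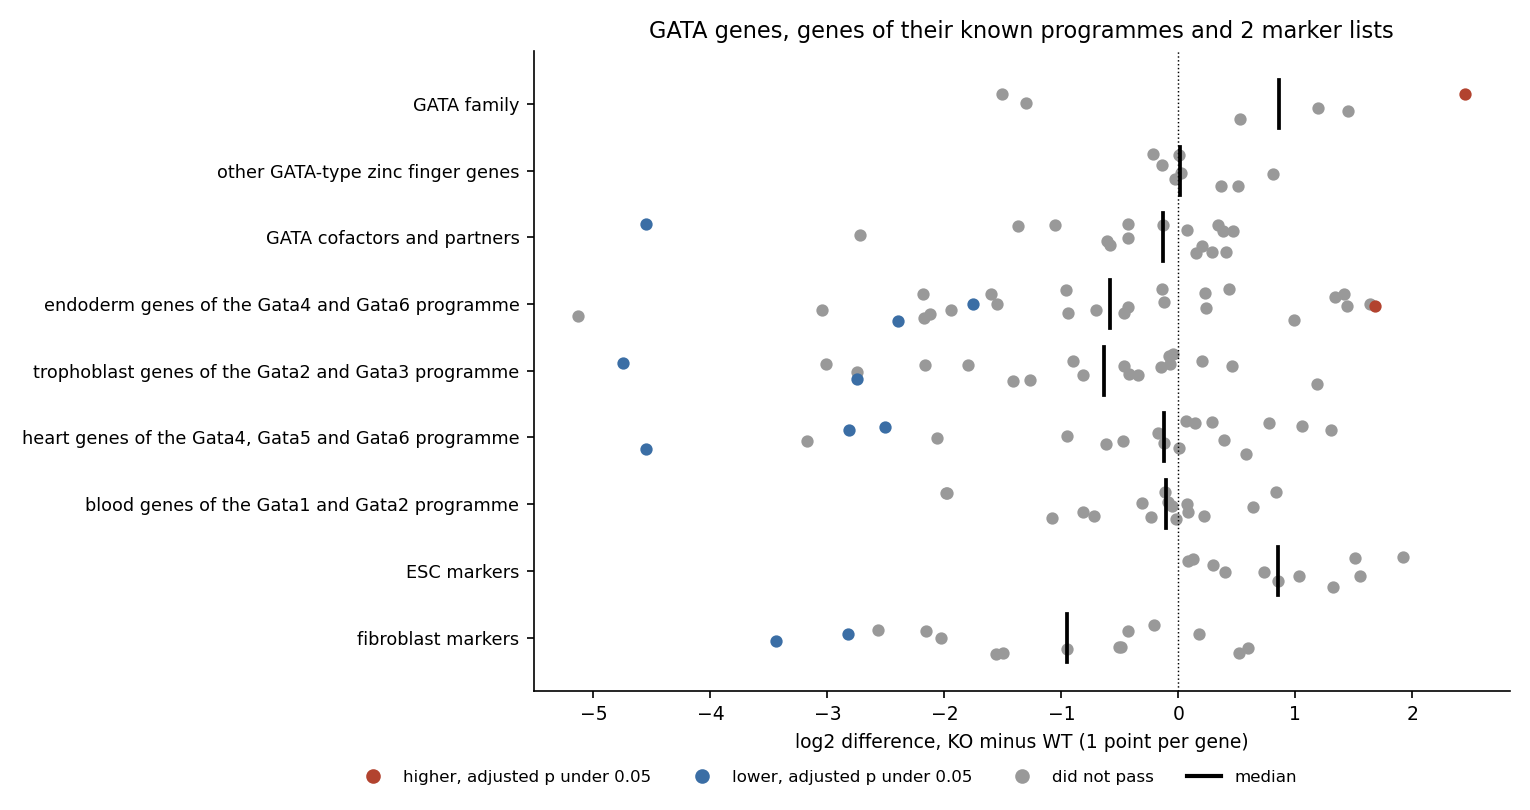
KO minus WT on the log2 scale for every tested gene of each list, by its brightest tested probe; red and blue points passed limma's adjusted p under 0.05 as higher or lower, grey points did not, and bars are list medians. The GATA genes stand on both sides of 0, 2 of 6 below it, whereas trophoblast and fibroblast genes lie mostly below 0 and all 11 ESC markers lie above it.

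Genes with the most similar pattern over the 4 lines were sought among 14366 genes by the Euclidean distance of log2 values after each probe's mean was subtracted, with the brightest tested probe per gene. For Gata3 they were Jsrp1 (distance 0.066), Rdh10 (0.088) and Boll (0.12), all well above background on all 4 arrays. For Gata2 they were Pax9, Lats2 (0.13) and Zfp677 (0.14), where Pax9 was not well above background in either KO line, so its place in the order is not read. The nearest to Gata4 were Zfp93, Ctnnal1 and Icam5, and to Gata6 Hoxb13, Samd9l and Pitx1, all well above background on all 4 arrays. The nearest to Gata1 were Spns3, Abca14 and Asic3, none of them well above background in a WT line. For Gata5, itself not well above background in WT lines, Slc22a26, Helz2 and C1s2 came nearest, and Slc22a26 and C1s2 were likewise undetected in WT lines, so these likenesses rest in part on background readings. Within a distance of 0.25 there were 17 genes for Gata2, 62 for Gata3, 127 for Gata4 and 1 for Gata6. With 4 lines such a distance describes a shape only.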

How the data were processed

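RNA of 2 KO and 2 WT lines was measured on 1 Agilent one-colour array each. Per the file headers, Agilent Feature Extraction 10.7.3.1 gave the spot intensity; the processed intensity is background-subtracted within each array and the median spot and local background intensity are raw. The deposited series table holds log2 values made with GeneSpring GX11 per the labels. Its columns share their quantiles within 0.00073 and have a median of 6.55, its scale was read from the values, and the centring steps are not given in the sources used here. The header annotation is of build mm9, whereas symbols and promoter sequences come from RefSeq GRCm38.p6, so no probe position is given.

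Processed signals were put on a log2 scale and shifted so that the 75th percentile over gene spots was equal on all arrays. Controls and outlier-flagged spots were dropped, and the remaining spots of a probe averaged. A probe counts as well above background where a share over 0.5 of its usable spots do, and was tested where that held on both arrays of at least 1 group. Of 41174 probes 26690 matched 1 symbol, and 28688 were tested with limma 3.58.1 in R 4.3.3 (genotype only, Benjamini-Hochberg at 0.05). In gene lists the brightest tested probe stands for a gene. The procedure was checked on simulated data.

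Equally numbered lines share a mother per the labels, so a fit with the mother as a block was run as well; line 2 minus line 1 correlated at 0.18 between KO and WT over probes. All p-values measure the spread between single lines, and 2 lines per group limit the precision. Alternatives covered scaling, background correction (normexp, offset 50, on median signals because mean spot signals are not in the files), the deposited values, the filter, the variance prior, 1 probe per gene, the block and leaving out each line. A fit with a line left out keeps 1 line in that group, so its p-values and calls rest on the spread of the other group alone. Members and lists were chosen with earlier results of these data known. Named genes are all GATA probes, Dppa2 and Dppa4, listed members that passed (or the 3 with the smallest p where none did), 12 listed regulators and the 3 nearest patterns per gene; others were named after their values were seen. The Y-linked genes and Xist were added after seeing the data.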

Additional observations from a re-analysis of the deposited data

How the results depend on the processing

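All 9 tested GATA probes kept the sign of their difference under every one of the 14 alternatives that gave a value. The Gata5 call held with quantile normalization (limma adjusted p = 0.026), median centring (0.032), the deposited values (0.026) and 1 probe per gene (0.041), but not throughout. With a line left out, the Gata5 difference ran from 2.22 to 2.68. GATA probes called higher were 0 with no filter on dim probes and with a trend and robust prior. They were also 0 under normexp with the 75th percentile or with quantiles, and with the mother as a replicate block. With probes required on all 4 arrays the count was also 0, because Gata5 was then not among the 7 GATA probes tested. GATA probes called lower were 2 (Gata3 and Gata2) after normexp scaled to the 75th percentile, 1 with a trend and robust prior (Gata3), and 0 otherwise (limma; 2 to 4 at an unadjusted p under 0.05). Over all probes limma called 462 lower and 48 higher. The higher count was 78 with median centring, 97 with normexp scaled to the 75th percentile, 17 with no filter and 92 with a trend. With all 4 arrays required it was 68 lower and 1 higher, and with the block 0 and 0 (by unadjusted p under 0.05, 3556 lower and 3084 higher). When a line was left out the counts ran from 0 to 884 lower and from 0 to 170 higher; only without KO replicate 1 was any probe called. Listed genes, 9 lower and 1 higher, numbered 18 and 3 after normexp scaled to the 75th percentile, 14 and 2 with a trend, 4 and 0 with all 4 arrays required, and 0 and 0 with the block. Hnf4a turned to -0.069 under normexp with the 75th percentile. Higher listed genes were 2 with median centring and with normexp and quantiles, and 0 with no filter. Leaving out a line gave 0 to 12 lower and 0 to 1 higher. Median centring set the median difference over all tested probes to 0.26, against 0.09. For the dim probes of Gata4 and Gata5, signal over background limits the values, and the normexp offset of 50 draws their differences toward 0 by construction. The cause of the other shifts was not tested. Eomes and Tfcp2l1 passed after normexp scaled to the 75th percentile (0.0486 and 0.0495), and Sox2 with a trend (0.0423). Dppa2 missed the threshold under 4 of 14 alternatives, with limma adjusted p up to 0.121.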

Other observations

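None of the other genes with a GATA-type zinc finger passed. Of 8 tested, 0 were called in limma (1 higher and 0 lower at an unadjusted p under 0.05), and the median difference was 0.014. The unadjusted shares over all tested probes were 10.9% higher and 12.1% lower. Trps1, a repressor with a single GATA-type finger, had 9.56 and 9.70 in KO lines against 8.88 and 8.75 in WT lines (log2 difference 0.81, SE 0.14, limma adjusted p = 0.095). Mta3 and Gatad2b, components of the NuRD chromatin complex, differed by 0.51 and 0.37.

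Genes of the blood programme known for Gata1 and Gata2 had 0 calls among 16 tested in limma (0 higher and 2 lower at an unadjusted p under 0.05), with a median of -0.10. Over all tested probes 10.9% were higher and 12.1% lower at that unadjusted threshold, so 2 of 16 is near the background share. The embryonic globin gene Hbb-bh1 was not well above background in KO lines, and the processed signal puts WT at least 2.29-fold above them (limma adjusted p = 0.055). Normexp gave smaller log2 differences, -0.43 with the 75th percentile and -0.24 with quantiles, below that bound. The endothelial receptor gene Tek differed by -0.72 and the erythrocyte anion exchanger gene Slc4a1 by 0.63, with Slc4a1 at 5.64 and 6.24 in KO lines against 5.28 and 5.34 in WT lines. Among these genes Alas2, an enzyme of red cell haem synthesis, and Gp9, a platelet glycoprotein, were too dim to be tested. Dppa4, whose targeted allele the KO lines carry, had 13.95 and 14.07 in KO lines against 13.37 and 13.54 in WT lines (log2 difference 0.55, limma adjusted p = 0.157).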
